A study of Mus musculus with 4 samples.

Results

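The mitochondrial ribosomal protein genes of the mouse were taken as the protein-coding genes on autosomes whose symbol is Mrpl or Mrps followed by a number in GENCODE mouse release 21, which gave 78 of 20807 protein-coding autosomal genes. Of these, 49 were named for the large subunit (Mrpl) and 29 for the small subunit (Mrps). They lay on 17 of the 19 autosomes, with 11 genes on chromosome 11 and 8 on chromosome 17. Chromatin accessibility at their starts was read from ATAC-seq, an assay in which a transposase cuts and tags open DNA, so that a peak is an interval where tagged fragments pile up.

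The cells were E14, a line of mouse embryonic stem cells (ESCs) kept in serum with LIF. All of them carried a pLKO lentivirus, were selected with puromycin for 2 days and were collected 2 days later. The virus encoded a short hairpin RNA against GFP (shGFP, 1 library) or luciferase (shLuc, 3 libraries), neither of which is a mouse gene, so both groups are controls. Knockdown libraries of the study were not analysed here. The labels do not say whether the shLuc replicates came from separate infections. The deposited lists held 41943 peaks for shGFP and 17860, 41401 and 31585 for shLuc replicates 1, 2 and 3, with a position for each peak and no height or score. The lists carry no sequencing depth, so an absent peak says only that none was listed. Read totals per library stand in the study's supplementary tables and were not used here, and the part of depth in the results was not tested. Of 6 markers of ESCs, 1 (Zfp42) had a peak at its start in all 4 libraries and 3 (Pou5f1, Nanog, Sox2) had one in none, and of 4 markers of other lineages only Myod1 had one, in shLuc replicate 2. Start peaks of defining markers of the labelled cell type were thus absent from the lists, and a start peak is no measure of expression.

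Mitochondria carry their own ribosome, which makes the few membrane proteins of the respiratory chain that are encoded in mitochondrial DNA. Its ribosomal RNAs come from mitochondrial DNA, while all of its proteins are encoded in the nucleus, made in the cytosol and imported. A core of these proteins has counterparts in the bacterial ribosome, and many others are specific to mitochondria. The nuclear genes are expressed in nearly all cell types and mostly start from CpG-rich promoters without a TATA box. Factors of the NRF1, ETS and YY1 families are known to bind promoters of nuclear genes for mitochondrial proteins.

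A start peak was a peak within 1 kb of the start of any annotated transcript of a gene, and the widest was used where there were several. Promoters are printed for the pair of genes with the widest peaks among those with a start peak in all 4 libraries (Mrpl40 and Mrpl48), the pair with the closest coding partner gene on the other strand (Mrpl13 and Mrpl18), the gene with no start peak (Mrpl49), the start shared by a large and a small subunit gene (Mrpl46, facing Mrps11) and a small subunit gene with ETS and YY1 motifs (Mrps12). The last 2 were chosen after the values were seen, as was a second window for Mrpl48, since its widest peaks cover a start far upstream of its reference start. Each runs 5′ to 3′ in the direction of the named gene from 250 bases before its reference start, or before that upstream start, through the first 30 bases of the transcript, on the minus strand of GRCm38 (mm10) in all 8 cases. Capitals mark matches to the 7 motifs searched.
Mrpl40, chr16:18876833-18877112: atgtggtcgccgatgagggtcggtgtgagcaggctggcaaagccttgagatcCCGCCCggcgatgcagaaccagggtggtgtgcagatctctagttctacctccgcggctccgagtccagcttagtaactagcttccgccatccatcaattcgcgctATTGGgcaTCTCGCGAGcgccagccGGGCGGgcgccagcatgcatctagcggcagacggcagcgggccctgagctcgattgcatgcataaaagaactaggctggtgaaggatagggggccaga
Mrpl48 at its reference start, chr7:100583073-100583352: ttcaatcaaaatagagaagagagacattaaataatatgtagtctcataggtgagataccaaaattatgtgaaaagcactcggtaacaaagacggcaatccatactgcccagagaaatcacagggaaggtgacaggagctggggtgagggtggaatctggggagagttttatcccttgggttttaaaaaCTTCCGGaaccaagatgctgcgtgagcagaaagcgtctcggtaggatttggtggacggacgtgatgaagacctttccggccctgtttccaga
Mrpl48 under its widest peaks, chr7:100607965-100608244: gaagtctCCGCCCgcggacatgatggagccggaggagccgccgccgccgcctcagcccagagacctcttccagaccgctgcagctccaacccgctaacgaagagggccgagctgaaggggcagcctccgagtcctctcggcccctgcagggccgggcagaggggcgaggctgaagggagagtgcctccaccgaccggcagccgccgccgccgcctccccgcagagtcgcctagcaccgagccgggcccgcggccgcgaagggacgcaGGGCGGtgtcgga
Mrpl13, chr15:55557719-55557998: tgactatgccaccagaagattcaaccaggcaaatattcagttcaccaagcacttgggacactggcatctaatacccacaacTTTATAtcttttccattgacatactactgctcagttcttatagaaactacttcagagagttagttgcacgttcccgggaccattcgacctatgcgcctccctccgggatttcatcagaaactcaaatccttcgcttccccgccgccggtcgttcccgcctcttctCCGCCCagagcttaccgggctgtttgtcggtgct
Mrpl18, chr17:12916316-12916595: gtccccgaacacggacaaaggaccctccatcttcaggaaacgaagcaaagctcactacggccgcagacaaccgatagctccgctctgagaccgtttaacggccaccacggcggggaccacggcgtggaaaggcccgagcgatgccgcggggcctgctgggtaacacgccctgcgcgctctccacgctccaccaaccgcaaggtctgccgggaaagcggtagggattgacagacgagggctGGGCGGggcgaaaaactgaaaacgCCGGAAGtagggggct
Mrpl49, chr19:6057756-6058035: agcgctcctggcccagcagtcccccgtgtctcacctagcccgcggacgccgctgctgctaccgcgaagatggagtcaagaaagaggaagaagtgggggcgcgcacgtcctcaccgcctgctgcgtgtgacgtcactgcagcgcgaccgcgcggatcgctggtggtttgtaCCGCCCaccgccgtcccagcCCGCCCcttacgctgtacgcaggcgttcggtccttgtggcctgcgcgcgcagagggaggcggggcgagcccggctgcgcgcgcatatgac
Mrpl46, chr7:78783060-78783339: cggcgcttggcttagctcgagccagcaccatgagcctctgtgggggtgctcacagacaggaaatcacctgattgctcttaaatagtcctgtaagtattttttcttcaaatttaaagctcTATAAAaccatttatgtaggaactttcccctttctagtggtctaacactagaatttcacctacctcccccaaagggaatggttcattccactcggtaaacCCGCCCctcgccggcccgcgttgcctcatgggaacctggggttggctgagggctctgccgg
Mrps12, chr7:28741741-28742020: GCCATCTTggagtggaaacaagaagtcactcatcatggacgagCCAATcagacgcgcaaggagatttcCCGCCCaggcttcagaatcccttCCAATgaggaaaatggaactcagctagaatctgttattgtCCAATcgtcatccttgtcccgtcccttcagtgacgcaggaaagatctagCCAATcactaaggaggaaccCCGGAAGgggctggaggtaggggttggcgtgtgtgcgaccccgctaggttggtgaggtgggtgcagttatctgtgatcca

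The motifs were searched on both strands of the 300 bases around each reference start (250 before, 50 after). They were NRF1 (GCGCNTGCG), ETS (CCGGAAG), YY1 (AANATGGC) and a ZBTB33-type word (TCTCGCGAG). The others were the CCAAT box (CCAAT), SP/KLF (GGGCGG) and the TATA box (TATAAA), and none of these motifs contains another. In the printed promoters, Mrpl40 holds the ZBTB33-type motif beside an inverted CCAAT box and SP/KLF sites, Mrpl18 holds an ETS motif just inside the gene, and Mrps12 holds 4 CCAAT boxes, an ETS motif and, at its 5′ end, an inverted YY1 motif. A match is a description of the letters and no evidence that a factor binds.

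Nearly all mitochondrial ribosomal protein genes had open chromatin at their start in at least 1 library. A start peak was found in all 4 libraries at 59 of 78 genes (75.6%), in 1 to 3 libraries at 18 and in no library at 1. Over all coding autosomal genes the shares were 44.0% in all 4, 22.0% in 1 to 3 and 34.0% in none. By library, 74 of the 78 genes had a start peak in shGFP and 64, 72 and 69 in shLuc replicates 1, 2 and 3. These are 94.9% in shGFP and 82.1%, 92.3% and 88.5% in shLuc (mean 87.6% ± 5.18, SD, n = 3), against 61.9%, 48.4%, 61.5% and 56.3% of all coding genes. The share of these genes thus exceeded that of all coding genes in every library, by 32.9 percentage points in shGFP and by 32.2 ± 1.43 (SD, n = 3) in shLuc. In all 4 libraries the difference was 31.7 percentage points. It fell to 4.33 when each list was cut to its widest 17860 peaks, the length of the shortest list, where only 29 of the 78 genes kept a start peak in all libraries. Genes are not replicates, and with 1 library against 3 the smallest p of an exact permutation test is 0.25, so no test was run.

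The set also differed from other coding genes in the base composition of its promoters, and the part of this in the shares was not tested. The ratio of observed to expected CpG was at least 0.6 at 70 of the 78 starts (89.7%) but at 48.1% of all coding genes. Among coding genes with such CpG-rich starts, 69.7% had a start peak in all 4 libraries, against 53 of the 70 CpG-rich mitochondrial ribosomal protein genes (75.7%). Here the difference was 6.06 percentage points in all 4 libraries, 4.43 in shGFP and 4.78 ± 2.32 (SD, n = 3) in shLuc. Of the 8 genes below this CpG limit, 6 had a start peak in all 4 libraries, against 20.2% of 10802 coding genes below it. Median GC content was 57.5% at these genes and 56.3% at all coding genes. Words of 50 bases found more than once in the genome, where a read could be placed at random, were searched within 250 bp on either side of the reference start. They occurred at 6 of the 78 genes (7.69%) and at 16.7% of all coding genes.

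**Figure D1:**
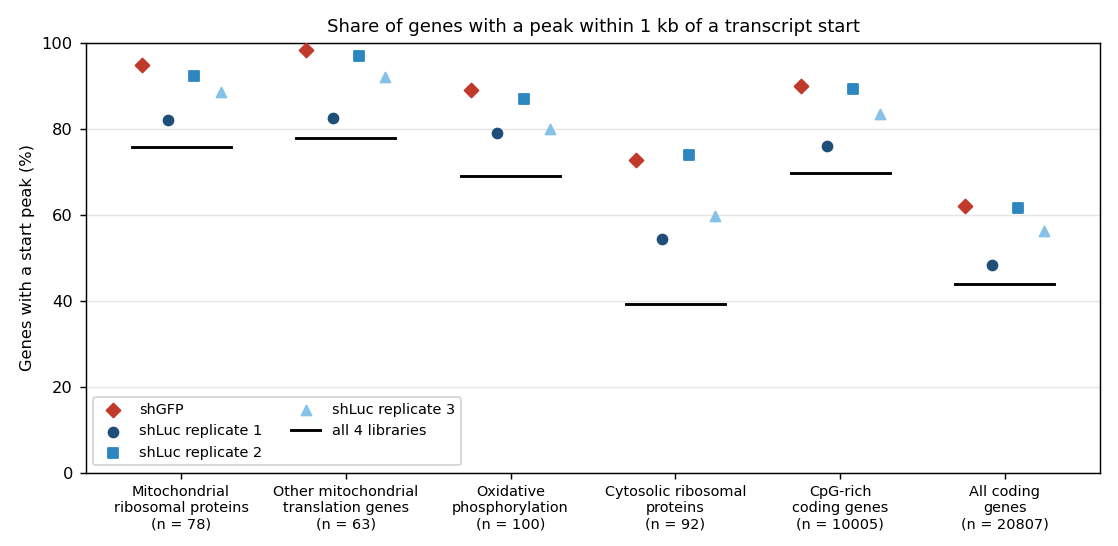
Share of genes with a start peak (%, vertical axis) for the mitochondrial ribosomal protein genes, 3 related gene lists and 2 backgrounds, with 1 point per library and a bar for the share with a start peak in all 4 libraries. The mitochondrial ribosomal protein genes sit between 82.1% and 94.9%, above all coding genes (48.4% to 61.9%), and shLuc replicate 1 is the lowest library in each of the 6 groups.

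The other genes of the pathway were open to a like extent. A start peak in all 4 libraries was found at 3 of 5 mitoribosome proteins with other symbols, 22 of 27 assembly factors and rRNA modification enzymes, 9 of 14 translation factors and 15 of 17 mitochondrial aminoacyl-tRNA synthetases. Together these are 49 of 63 genes (77.8%), and each of the 63 had a start peak in at least 1 library. The lists are not fully independent of the set. Sars2, a synthetase that starts next to Mrps12, had the same widths as Mrps12, at 831 bp in shGFP and 525, 543 and 764 bp in shLuc replicates 1, 2 and 3. Gadd45gip1, a large subunit protein, had one only in shLuc replicate 1 (634 bp), and Tufm, the elongation factor that brings tRNAs to the ribosome, only in shGFP (577 bp) and shLuc replicate 2 (525 bp). Genes for oxidative phosphorylation, whose complexes take up the products of this ribosome, had a start peak in all 4 libraries in 69 of 100 cases. They were taken by symbol alone: Nduf followed by a, b, c, s or v, Cox followed by a number, Uqcr, Atp5, and Sdha to Sdhd. Matches that encode no subunit of a complex, such as assembly factors, were not removed. The cytosolic ribosome has the same task for nuclear messages. Its protein genes were taken by symbol alone, as Rpl or Rps followed by a number. This rule also matches genes that encode no ribosomal protein, such as kinases named after one, and these were not removed. In this list, called cytosolic ribosomal protein genes here, 36 of 92 (39.1%) had a start peak in all 4 libraries, although 81.5% were CpG-rich. In each of the 4 libraries the share of this list, from 54.3% in shLuc replicate 1 to 73.9% in shLuc replicate 2, was below that of the mitochondrial set.

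The gene without a start peak was Mrpl49, a mitochondria-specific protein of the large subunit. The nearest peaks lay 9296 bp from its starts in shGFP and 9822, 3294 and 2868 bp away in shLuc replicates 1, 2 and 3. Its promoter, printed above, has 69% GC and a CpG ratio of 1.06, and the start of Fau, its partner on the other strand, lies 59 bp upstream. Repeated words made up 0.443% of its window.

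Of the 18 genes with a start peak in some libraries, 11 lacked it in a single list. In 8 of these 11 the missing list was that of shLuc replicate 1, the shortest: Mrpl4, Mrpl16, Mrpl38, Mrpl43, Mrpl55, Mrps17, Mrps21 and Mrps30. The other 3, Mrpl2, Mrpl11 and Mrpl14, lacked it in shLuc replicate 3. Among all coding genes with 3 of 4 libraries the list of shLuc replicate 1 was the missing one in 76.7% and that of replicate 3 in 17.7%. No gene of the set lacked a start peak only in shGFP or only in shLuc replicate 2. These cases were also rare among all coding genes with 3 of 4 libraries, at 2.36% and 3.31%. Mrpl23 had a start peak in shGFP and shLuc replicate 1, Mrpl34 in shGFP and shLuc replicate 3, and Mrps5 in shGFP and shLuc replicate 2.

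The genes missing from a list were not only those with narrow peaks. Mrpl14 had the widest peaks of the 18, with 1423 bp in shGFP, 1203 bp in shLuc replicate 1 and 1420 bp in replicate 2, while the nearest peak in replicate 3 was 43324 bp away. Mrpl43 measured 1159 bp in shGFP and 1392 and 654 bp in shLuc replicates 2 and 3, and Mrpl2 1110, 971 and 1027 bp in shGFP and shLuc replicates 1 and 2. Mrps30 had peaks of 1023, 1073 and 987 bp in shGFP and shLuc replicates 2 and 3, and no peak of replicate 1 came within 427479 bp of it. Mrpl4, with 903, 738 and 920 bp in these 3 libraries, was also over 40 kb from a peak in replicate 1, at 49358 bp. The nearest peak was 16905 bp from Mrpl43 in replicate 1 and 1288 bp from Mrpl2 in replicate 3.

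At the narrow end, Mrps2, a protein of the small subunit with a bacterial counterpart, had a single start peak of 221 bp, in shLuc replicate 1, where it was as narrow as the narrowest peak of the whole list. The other 3 libraries listed a peak of 538, 533 and 532 bp upstream of Mrps2 instead, 1428, 1422 and 1438 bp from the nearest start. Mrpl34 had 529 bp in shGFP and 372 bp in shLuc replicate 3, and Mrps17 had 535 bp in shGFP and 475 and 347 bp in shLuc replicates 2 and 3. Mrpl53 had 475 bp in shLuc replicate 2 alone, and Mrpl38 had 610, 595 and 441 bp in shGFP and shLuc replicates 2 and 3. The last pair with a single library were Mrpl52, with 568 bp in shGFP, and Mrps34, with 770 bp in shLuc replicate 3. The peak of Mrps34 did not cover any of its starts: it lay 892 bp from the nearest one, inside the gene, and similar peaks in shGFP and shLuc replicate 2 lay just outside the limit of 1 kb, at 1187 and 1249 bp. With a limit of 500 bp, 2 genes had no start peak.

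The peaks of the set were narrower than those of other open genes in each library. For the 59 genes with a start peak in all 4, the median width was 831 bp in shGFP and 525, 767 and 719 bp in shLuc replicates 1, 2 and 3 (mean 670 ± 128, SD, n = 3). The medians for all 9150 coding genes with a start peak in all 4 were 1005 bp in shGFP and 719, 970 and 930 bp in shLuc (mean 873 ± 135). CpG-rich coding genes had wider peaks still, with medians of 1032, 745, 995 and 955 bp in the same order. The cytosolic ribosomal protein genes were close to the mitochondrial set, at 831, 545.5, 793.5 and 796 bp, and the oxidative phosphorylation genes lay between, at 882, 580, 850 and 777 bp. Over all start peaks of the set, with those seen in fewer libraries included, the median was 830 bp in shGFP and 666 ± 107 (SD, n = 3) in shLuc. The gap between shGFP and the shLuc mean exceeded this SD, but shGFP also had the longest list, and the shortest list, shLuc replicate 1, had the narrowest peaks.

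**Figure D2:**
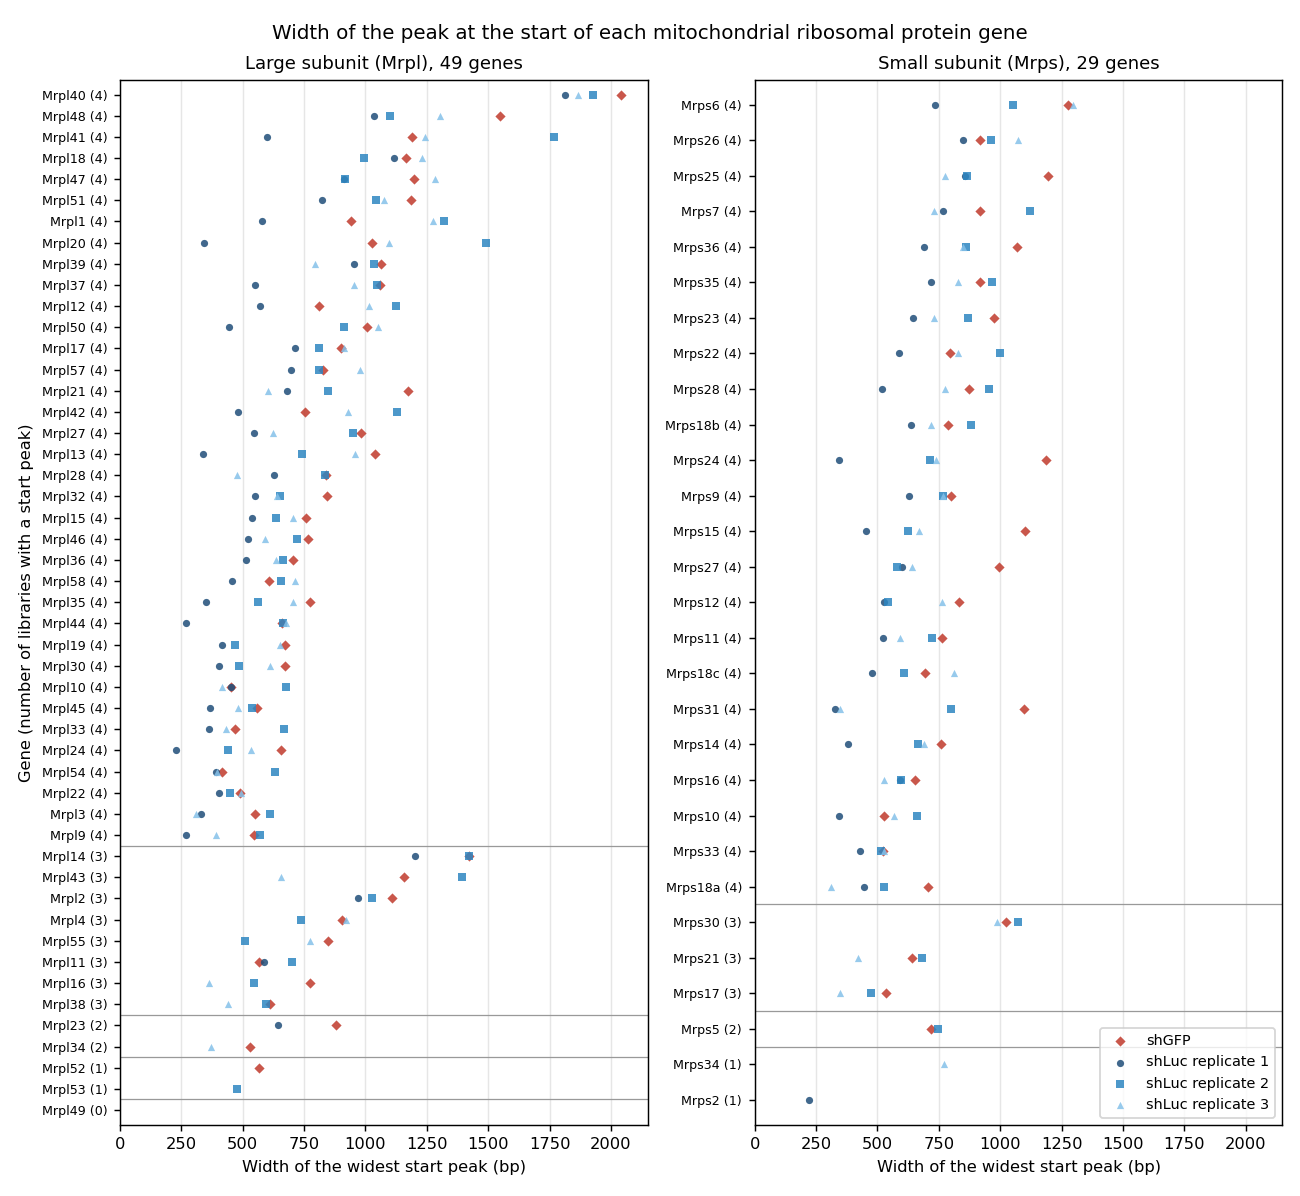
Width of the widest start peak (bp, horizontal axis) of each of the 49 Mrpl and 29 Mrps genes, with 1 symbol per library and the number of libraries with a start peak in parentheses. Genes are ordered by that number and then by mean width, from Mrpl40 with 1814 to 2041 bp downwards. Points of shLuc replicate 1 lie farthest left at 48 of the 59 genes with a start peak in all 4 libraries, and Mrpl49 has no point.

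Among the genes with a start peak in all 4 libraries, Mrpl40 had by far the widest peaks, with 2041 bp in shGFP and 1814, 1927 and 1864 bp in shLuc replicates 1, 2 and 3, and the 4 values spread by 5.12% of their mean (coefficient of variation). Mrpl40 shares its promoter with Hira, which encodes a histone chaperone, and the peak reached over both starts in each library. Next among these genes was Mrpl48 with 1549, 1033, 1098 and 1303 bp, at a start shared with Rab6a, a GTPase of Golgi traffic. Mrpl41 had 1190, 598, 1769 and 1244 bp and Mrpl18 had 1165, 1115, 994 and 1229 bp. The widest of the small subunit was Mrps6, with 1277, 733, 1053 and 1297 bp. In Mrpl40 and Mrpl18 the libraries lay close together, while Mrpl41 ranged from 598 to 1769 bp within shLuc.

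The 5 narrowest with a start peak in all 4 libraries were all of the large subunit. Mrpl9 had 544 bp in shGFP and 268, 572 and 391 bp in shLuc replicates 1, 2 and 3, and Mrpl3 had 549, 332, 612 and 309 bp. Mrpl22, at the tunnel through which the new chain leaves the ribosome, had 487, 402, 447 and 495 bp. Mrpl54 had 415, 391, 632 and 394 bp and Mrpl24 had 654, 230, 440 and 532 bp. In these genes the order of the libraries was not fixed: the widest peak was in shLuc replicate 2 for Mrpl9, Mrpl3 and Mrpl54, in shGFP for Mrpl24 and in shLuc replicate 3 for Mrpl22.

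Widths varied more between libraries at these genes than at other open genes, with a median coefficient of variation of 23.2% against 18.2%. It was largest for Mrps31, with 1098 bp in shGFP and 329, 801 and 349 bp in shLuc replicates 1, 2 and 3 (57.9%), then Mrpl20, with 1026, 343, 1492 and 1094 bp (48.2%), and Mrps24, with 1185, 345, 713 and 739 bp (46.1%). All 3 were narrow in shLuc replicate 1. The shGFP peak was wider than every shLuc peak at 31 of the 59 genes (52.5%), against 44.2% of all coding genes with a start peak in all 4. It was the narrowest at none of the 59 genes and at only 3.92% of those coding genes. The peak of shLuc replicate 1 was the narrowest at 48 of the 59 (81.4%, against 74.3% of coding genes). Ranks of width were similar between libraries, with Spearman correlations over the 59 genes from 0.598 to 0.742, which describe genes that share a genome and a peak caller and carry no test.

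The same bases were open in the 4 libraries at most of these genes. At 57 of the 59 (96.6%, against 94.3% of coding genes) the widest start peaks of all 4 libraries had bases in common, a median of 522 bp against 661 bp, and at 56 of them those bases held an annotated start. The exceptions were Mrpl33 and Mrps24, where the widest start peak in shLuc replicate 2 lay at another start of the gene.

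The peaks lay on the start, with the midpoint slightly inside the gene. The offset is the distance from the reference start to the midpoint of the peak, positive into the gene. Its median over the genes with a start peak was 54.2 bp in shGFP and 59.8, 39.2 and 72.5 bp in shLuc replicates 1, 2 and 3 (mean 57.2 ± 16.8, SD, n = 3), against 75 bp and 59.5, 69.5 and 73 bp for all coding genes. The midpoint was within 250 bp of the reference start in 81.1% of the genes in shGFP and 81.2%, 79.2% and 76.8% in shLuc, more often than in all coding genes (63.3%, 69.9%, 63.0% and 63.5%). The peak covered the reference start in 97.3% in shGFP and in 90.6%, 95.8% and 94.2% in shLuc, against 82.3% to 85.7% of all coding genes in the same libraries. Measured from the nearest annotated start in place of the reference start, the mean of the 4 medians fell from 56.4 to 8.06 bp.

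A few genes had their open chromatin away from the reference start. At Mrpl48 (reference start 100583102 on chromosome 7) the widest peak lay far upstream, with its midpoint at -24880 bp in shGFP and at -24698, -24710.5 and -24804 bp in shLuc replicates 1, 2 and 3, at the start next to Rab6a. A second peak of 697, 751, 696 and 594 bp in the same 4 libraries covered another of its starts, and 1 more, at the reference start, where the first of the printed windows lies, was listed in 3 of them, with 438 bp in shGFP and 414 and 441 bp in shLuc replicates 1 and 2. Mrpl36 had its widest peak at -2724, -2661, -2711 and -2727 bp in the same order, at the start that faces Ndufs6, a subunit of respiratory complex I. At the reference start of Mrpl36 a peak was listed only in shLuc replicate 2, with 563 bp. The widest peaks of both genes thus lay at an annotated start other than the one chosen as reference. With only the reference start of each gene counted, 57 genes of the set had a start peak in all 4 libraries. The mean offset of Mrpl33, -4224 bp, came from a single library: the midpoint was at 74, 112.5 and 122.5 bp in shGFP and shLuc replicates 1 and 3, and at -17204 bp in replicate 2.

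The farthest downstream among genes with a start peak in all 4 libraries was Mrpl1, at 487 bp in shGFP and 413, 784.5 and 762.5 bp in shLuc replicates 1, 2 and 3, and none of its peaks covered the reference start, although all covered another start. Mrpl13 followed with 398.5, 312, 508 and 390 bp and Mrps28 with 309.5, 333.5, 268.5 and 299 bp. The single start peak of Mrps34, at 1295.5 bp, and those of Mrpl23, at 386 bp in shGFP and 376 bp in shLuc replicate 1, lay outside this ranking. Mrps28 has a single annotated start, and its position differed little between libraries. Besides Mrpl48, 5 genes had more than 1 start peak in a library: Mrpl13 in shGFP, and Mrpl33, Mrpl36, Mrps9 and Mrps24 in shLuc replicate 2. Of the genes of the set with a start peak, 2.70% had several in shGFP and 1.56%, 6.94% and 1.45% in shLuc replicates 1, 2 and 3. For all coding genes the shares were higher in each library, at 10.5%, 4.95%, 10.3% and 8.04% in the same order.

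Mitochondrial ribosomal protein genes often started back to back with another gene. A protein-coding gene on the other strand had a start within 1 kb at 33 of 78 (42.3%), against 12.7% of all coding genes and 20.5% of CpG-rich ones. In related lists a coding partner was found at 40.7% of the assembly factors, 36 of the 100 oxidative phosphorylation genes, 35.3% of the mitochondrial aminoacyl-tRNA synthetases, 21.4% of the mitochondrial translation factors and 20.7% of the cytosolic ribosomal protein genes. The partner started upstream, which makes a divergent pair, at 25 (32.1% against 10.0%), and inside the gene, so that the transcripts overlap at their 5′ ends, at 8 (10.3% against 2.64%). A further 4 had only a noncoding partner: Ccdc142os at Mrpl53, 2610507I01Rik at Mrpl55, C920021L13Rik at Mrps21 and 4930473A02Rik at Mrps26. With any kind of partner there were 37 genes (47.4% against 23.4%). The gap of the 25 divergent pairs had a median of 66 bp, from 26 bp between Mrpl54 and Apba3 to 935 bp between Mrpl41 and Pnpla7, and 23 of the 25 (92.0%) were within 200 bp. Over all coding genes with an upstream partner the median gap was 104 bp and 74.9% were within 200 bp. These shares come from the annotation and do not depend on the peaks.

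Several partners were themselves genes for mitochondrial proteins. Mrps11 and Mrpl46 faced each other across 30 bp, so that a small and a large subunit gene shared a promoter and the same 4 peaks (764 bp in shGFP and 522, 723 and 592 bp in shLuc replicates 1, 2 and 3), and the 2 genes do not count as independent. Mrps12, which sits at the decoding site, was 172 bp from Sars2, the mitochondrial seryl-tRNA synthetase. Mrpl43 was 116 bp from Twnk, the helicase of mitochondrial DNA. Mrps27 was 81 bp from Ptcd2, which acts on mitochondrial RNA. Ndufb5, like Ndufs6 a subunit of complex I, started 20 bp inside Mrpl47, and Ndufs6 itself started 29 bp inside Mrpl36.

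The other divergent partners were Klc4 (of Mrpl2), Lrrc46 (Mrpl10), Tmem63b (Mrpl14), Ighmbp2 (Mrpl21), Eme1 (Mrpl27), Mitd1 (Mrpl30), Psma2 (Mrpl32), Cyb5rl (Mrpl37), Hira (Mrpl40), Fau (Mrpl49), Zfp189 (Mrpl50), Ncapd2 (Mrpl51), Ska3 (Mrpl57), Zfp661 (Mrps5), Gga3 (Mrps7), Ppp1r10 (Mrps18b), Helq (Mrps18c) and Eme2 (Mrps34). Among them are genes of DNA repair (Eme1, Eme2 and Helq) and of chromosome segregation (Ska3 and Ncapd2). The partners whose start lay inside the gene were Oaz3 (Mrpl9), Mtbp (Mrpl13), Tcp1 (Mrpl18), Wdfy1 (Mrpl44), Rab6a (Mrpl48) and B430218F22Rik (Mrps30). The closest were Mtbp, at 13 bp from a start of Mrpl13, and Tcp1, a chaperonin subunit, at 16 bp from one of Mrpl18. The windows printed above for Mrpl13 and Mrpl18 are those at their reference starts. At Mrpl13 the peaks of shLuc replicates 1 and 2 ended at 55557605 and 55557611 and did not reach the printed window, though they covered another start.

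A peak at a paired gene usually covered both starts. Of the genes with a coding partner and a start peak, 29 of 31 did so in shGFP (93.5%) and 26 of 28, 29 of 31 and 27 of 29 in shLuc replicates 1, 2 and 3 (92.9%, 93.5% and 93.1%), against 88.2%, 83.5%, 88.2% and 87.0% of all such coding genes. At 24 of the 33 it did so in all 4 libraries. A start peak in all 4 was found at 26 of the 33 paired genes (78.8%) and 33 of the 45 others (73.3%). Over all coding genes the shares were 74.8% with a coding partner and 39.5% without, so the unpaired genes of the set were the ones farther above their background. The backgrounds differed in composition. Of the unpaired genes, 88.9% in the set and 43.8% of all coding genes were CpG-rich, and of the paired ones 90.9% and 77.9%. The part of this in the shares was not tested.

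Peaks at divergent pairs were shifted towards the partner. With an upstream coding partner the median offset was -60.5 bp in shGFP and -45, -64 and -68.5 bp in shLuc replicates 1, 2 and 3 (mean -59.2 ± 12.5, SD, n = 3), and without a coding partner it was 100.5 bp and 83, 85.5 and 101.5 bp (mean 90.0 ± 10.0). The sign differed between these kinds of gene in all 4 libraries. All coding genes showed the same split, at a mean over the 4 libraries of -81.4 bp with an upstream partner and 93.9 bp without. Median widths over the genes with a start peak were 919 bp in shGFP and 550, 846 and 719 bp in shLuc with an upstream coding partner, and 776, 499.5, 680 and 706 bp without a coding partner. In shLuc the means of these medians were 705 ± 148 and 628.5 ± 112 bp (SD, n = 3), a difference smaller than either SD, although the order was the same in each library.

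**Figure D3:**
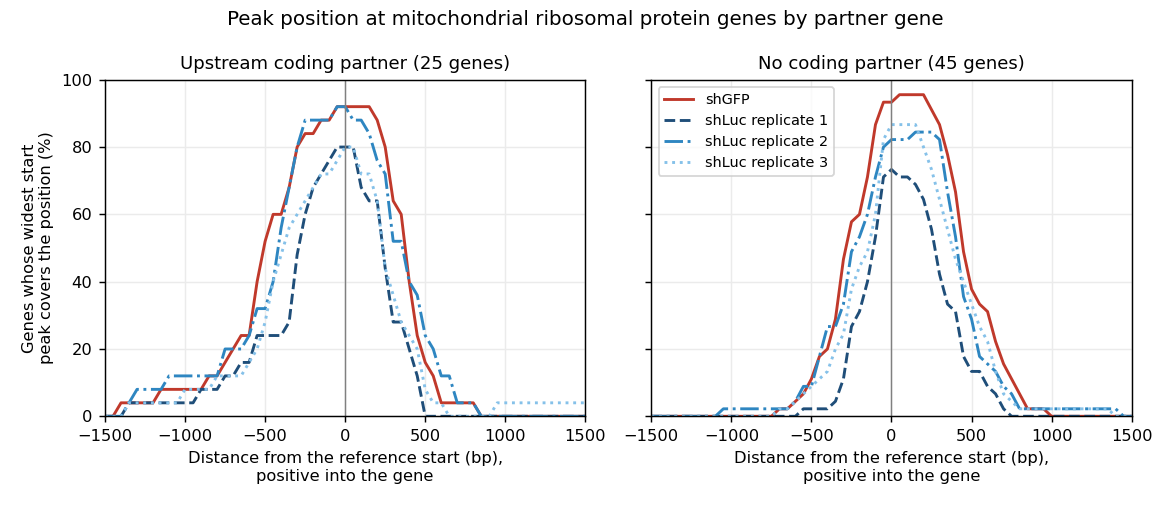
Share of genes whose widest start peak covers a position (%, vertical axis) against its distance from the reference start (bp, positive into the gene), for the 25 genes with an upstream coding partner and the 45 without a coding partner, with 1 line per library. In shGFP, 52% of the paired genes are covered at 500 bp upstream and 16% at 500 bp downstream, while for the unpaired genes the values are 11.1% and 37.8%. The low line beyond 900 bp in the paired genes is Mrps34 in shLuc replicate 3.

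Large and small subunit genes did not differ in a constant direction. A start peak in all 4 libraries was found at 36 of 49 Mrpl genes (73.5%) and 23 of 29 Mrps genes (79.3%), a difference of -5.84 percentage points. Within libraries it was 2.81 in shGFP and -1.13, -1.27 and -7.39 in shLuc replicates 1, 2 and 3 (mean -3.26 ± 3.58, SD, n = 3), and without shLuc replicate 3 the difference in all libraries was 0.281. Median widths at the genes with a start peak in all 4 were 820, 518.5, 776 and 706 bp for Mrpl and 872, 588, 767 and 732 bp for Mrps. The symbols do not follow the structure throughout, since the products of Mrps30 and Mrps18a are known to sit in the large subunit. Counted there, they moved the difference to -8.93. A coding partner was more frequent in Mrpl genes (49.0%) than in Mrps genes (31.0%).

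Proteins with a bacterial counterpart and those specific to mitochondria were present in similar shares, at 35 of 47 (74.5%) and 24 of 31 (77.4%) in all 4 libraries. They differed in width in the same direction in each library: the medians were 787, 515, 669 and 669 bp for bacterial counterparts and 985, 599, 891 and 828 bp for mitochondria-specific proteins, in shGFP and shLuc replicates 1, 2 and 3. In shLuc these are means of 618 ± 88.9 and 773 ± 154 (SD, n = 3). The mitochondria-specific genes also had a coding partner more often (51.6% against 36.2%), and the part of this in the widths was not tested.

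By role, the stalk that recruits translation factors is built from the products of Mrpl10 and Mrpl12. Mrpl10 had 451 bp in shGFP and 451, 678 and 417 bp in shLuc replicates 1, 2 and 3, and Mrpl12 had 811, 572, 1126 and 1016 bp, so that Mrpl12 was wider in every library. Mrpl45, which anchors the ribosome to the inner membrane at the exit of the tunnel, had 558, 365, 539 and 481 bp. Mrpl58, a peptidyl-tRNA hydrolase that was built into the large subunit, had 607, 456, 656 and 714 bp, and Mrps12 had 831, 525, 543 and 764 bp.

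The 3 paralogs of the bacterial protein S18 all had a start peak in each library. Mrps18a measured 708 bp in shGFP and 444, 527 and 311 bp in shLuc replicates 1, 2 and 3, Mrps18b 787, 637, 882 and 719 bp, and Mrps18c 694, 478, 609 and 813 bp. Mrps18b was wider than Mrps18a in all 4 libraries. The promoters of all 3 hold the ETS motif. Mrps36, whose product has been assigned to the oxoglutarate dehydrogenase complex rather than the ribosome, had 1070, 690, 860 and 850 bp.

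The ETS and YY1 motifs were more frequent at the starts of the set than in both backgrounds, and each was held by a minority of its genes. The ETS motif was found at 29 of 78 starts (37.2%), against 19.7% of CpG-rich coding genes and 11.5% of all coding genes. The YY1 motif was found at 16 (20.5%, against 8.95% and 6.36%). The NRF1 motif was found at 15 (19.2%), close to the 16.6% of CpG-rich genes and above the 8.58% of all coding genes. At least 1 of these 3 was present at 46 genes (59.0%), against 38.5% of CpG-rich and 23.0% of all coding genes. ETS and YY1 occurred together at 7 genes (8.97% against 2.08% and 1.12%): Mrpl27, Mrpl58, Mrps10, Mrps12, Mrps18a, Mrps18b and Mrps27. Those 7 had a start peak in all 4 libraries, as did 75.6% of the whole set, and a link between the motifs and the peaks was not tested.

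The YY1 motif lay mostly just inside the gene. Its median position was 14 bases after the start, and it was in the sense direction after the start at 10 of the 78 genes (12.8%), against 1.86% of all coding genes. For CpG-rich coding genes this share was not computed. At Mrps12, printed above, the match is inverted and lies 250 bases before the reference start, at the 5′ end of the window. It thus reads in the direction of Sars2, the partner gene, which starts 172 bp upstream of a start of Mrps12. This match may therefore belong to Sars2 rather than to Mrps12, which was not tested. Of the 16 genes with this motif, 15 were among the 59 with a start peak in all 4 libraries (25.4% of them) and 1, Mrps30, among the 19 others. For ETS the shares were 35.6% and 42.1%, and for NRF1 20.3% and 15.8%. These counts are small and were not tested.

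For SP/KLF and the TATA box the comparison turned on the background. SP/KLF was found at 37 genes (47.4%), against 46.3% of all coding genes but 74.1% of CpG-rich ones. The CCAAT box was found at 28 (35.9%, against 38.0% of all coding genes and 36.7% of CpG-rich ones). The TATA box was found at 7 (8.97%), below the 12.6% of all coding genes and above the 5.61% of CpG-rich ones. The ZBTB33-type motif was found at 2 (2.56%, against 0.875% of all coding genes and 1.75% of CpG-rich ones), Mrpl40 and Mrpl57. None of the 7 motifs was present at 8 genes (10.3%), against 22.1% of all coding genes and 8.04% of CpG-rich ones.

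**Figure D4:**
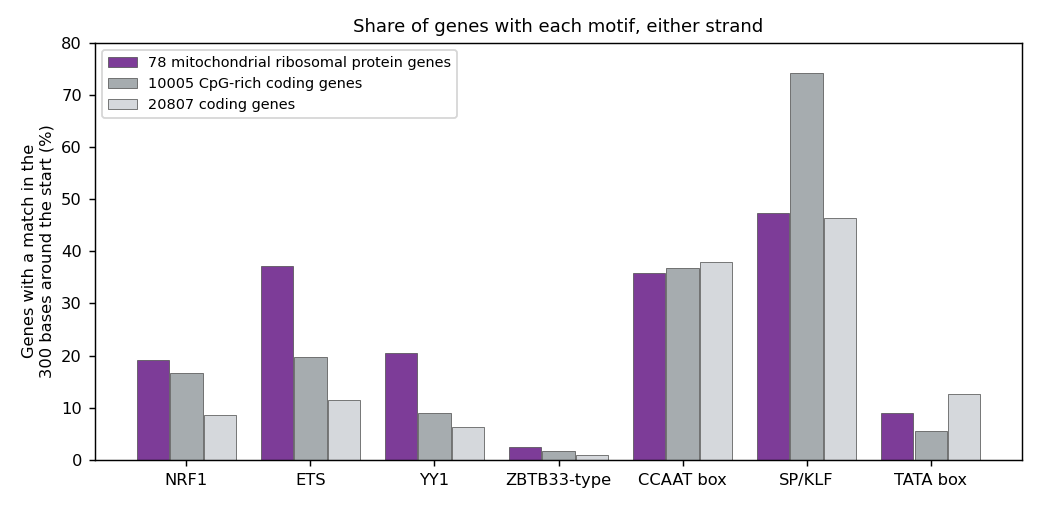
Share of genes (%, vertical axis) with a match to each of 7 motifs on either strand of the 300 bases around the reference start, for the 78 mitochondrial ribosomal protein genes, 10005 CpG-rich coding genes and all 20807 coding genes. ETS (37.2%) and YY1 (20.5%) are more frequent in the set than in both backgrounds, while SP/KLF (47.4%) is below the 74.1% of CpG-rich genes.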

How the data were processed

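ATAC-seq peaks from 4 libraries of E14 cells (1 shGFP, 3 shLuc) were used. The deposited files give, per the file headers and values, only chromosome, start and end in bp, 1 list per library, with no count, score or p-value. The submitters' processing notes name bcl2fastq, Bowtie2, MACS2 and mm10. According to the study's methods the authors kept the best alignment, placed ties at random, dropped mitochondrial reads and used concordant pairs. The peak threshold and any read shift for the transposase are not given in the sources used here. The lists hold no depth, so no counting error is given, and the read totals in the study's supplementary tables were not used here.

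Starts came from GENCODE release 21 on GRCm38 (coordinates of mm10, counted from 1), and sequences from the RefSeq copy of that genome. The reference start is that of the transcript with the best APPRIS rank, then the longest. A CpG-rich start had observed over expected CpG of at least 0.6 in 300 bases. A partner was a gene on the other strand with a start within 1 kb. Shares, medians, ranges and SDs were computed with Python 3.11.15, numpy 2.4.6, numba 0.67.0 and matplotlib 3.10.9. No test across libraries was run. The functions, tested on simulated data, gave the right answer in 5018 of 5018 cases.

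The genes, lists and motifs were chosen with earlier results of these data known. Genes are named by a rule: those with a start peak in 0 or 1 to 3 libraries (widths for the 5 widest and 5 narrowest, and for those with a single library), the 5 widest and 5 narrowest in all 4, the 3 farthest upstream and downstream, the 3 of largest relative spread, all coding partners and a few by role. Alternatives were start windows of 500 bp and 5 kb, peaks that cover a start, coding transcripts only, 1 start per gene, lists of equal length, summed widths, the nearest start, other subunit and partner definitions, and leaving out each shLuc library. Single genes of the cytosolic ribosome are not reported here.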

Additional observations from a re-analysis of the deposited data

How the results depend on the processing

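No paired analysis was possible because there is a single shGFP library and no result comes from a test. Of 83 comparisons of 10 results with 15 alternatives, 66 stayed within the SD of shLuc or, for a count, within 1.5 times, and 17 moved further.

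Lists cut to their widest 17860 peaks lowered the genes with a start peak in all 4 libraries from 59 to 29, those in shGFP from 74 to 49 and the difference from all coding genes from 31.7 to 4.33 percentage points, and raised the genes with none from 1 to 7 and the median width in shGFP from 830 to 975 bp. This setting drops narrow peaks by construction, and the set has narrow peaks. By library it left 62.8% of the set in shGFP and 82.1%, 51.3% and 60.3% in shLuc, against 48.4%, 48.4%, 47.4% and 47.2% of all coding genes. The genes with no start peak numbered 2 with a window of 500 bp, 0 with 5 kb and 2 when a peak had to cover a start. The difference from all coding genes was 34.0 percentage points with 5 kb and 33.7 when a peak had to cover a start. The difference between the subunits was -9.92 with 1 reference start per gene. The median offset was 8.06 bp from the nearest start.

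Without 1 shLuc library each, the genes with a start peak in all remaining libraries numbered 59 to 67, the genes with none numbered 2, the difference from all coding genes was 31.2 to 33.3 percentage points (highest without replicate 3), the mean shLuc width was 628 to 727 bp, the median offset 51.1 to 62.2 bp and the difference between the subunits -5.98 to 0.281, where the sign turned without replicate 3. The lists carry no depth, which limits every absent peak and every width.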

Other observations

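Peaks away from the starts were also listed near these genes. Another peak lay 1 to 10 kb from the reference start at 28 of the 78 genes in shGFP (35.9%) and at 18, 34 and 24 in shLuc replicates 1, 2 and 3 (23.1%, 43.6% and 30.8%), against 27.9%, 13.5%, 27.5% and 21.2% of all coding genes. The share was higher than that of all coding genes in each library. Such a peak may belong to a neighbouring gene, which was not tested.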
